A study of Homo sapiens with 4 samples.

Results

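The MEF2 transcription factors MEF2A, MEF2C and MEF2D and the calcium/calmodulin-dependent protein kinase II genes CAMK2B, CAMK2D and CAMK2G were chosen by gene symbol, as genes with exons known to be under RBFOX control in muscle or brain. All 6 genes were listed in the authors' deposited table of cassette exons, out of 9172 genes. They contributed 22 of its 31408 events, at 20 of its 27483 exons. CAMK2G had 8 exons in 10 events, MEF2A, MEF2C and MEF2D had 3 exons each, CAMK2D had 2 and CAMK2B had 1.

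The series holds 4 RNA-seq libraries of HEK293T, a human embryonic kidney line, with 2 libraries labelled WT and 2 labelled RBFOX2 KO. Per the labels, cells received the Cas9 plasmid PX459 and the plasmid pgRGFP with guides on both sides of RBFOX2, and clones grown from single sorted cells were genotyped by PCR. The same treatment is given for WT and RBFOX2 KO. Each library is therefore taken here to be 1 clone, and the WT clones to have been through the editing procedure too. Whether the libraries of a genotype come from separate clones was not checked. Strand-specific libraries were made from total RNA after removal of rRNA, to find exons whose splicing depends on RBFOX2 for comparison with maps of its binding.

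The authors' deposited table reports one set of libraries against another, called first and second here, and nothing in the header or labels says which set is WT. Differences are therefore given as first minus second set and never as a gain or loss on knockout. Junction counts and inclusion levels per library were not used, because their columns could not be matched to a sample or to a group. The depth and the spread between clones behind each difference are therefore not analysed here, and no SD is given. RBFOX2 itself had 0 events in the table, and gave no check of the knockout. Marker genes of the cell line could not be checked either, since a table of splicing events holds no expression levels.

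RBFOX proteins bind the element GCATG in RNA and promote or repress nearby exons depending on where they bind. MEF2 proteins are transcription factors that bind DNA and pair through an N-terminal MADS and MEF2 domain, and they drive muscle and neuronal gene programmes. Right after that domain, MEF2 genes carry a choice between 2 exons, α1, used widely, and α2, used in skeletal muscle, heart and brain; RBFOX proteins are known to favour α2 of MEF2D during muscle differentiation. CaM kinase II is a kinase with many subunits per holoenzyme that is activated by calcium and calmodulin. Its genes join a conserved kinase domain to a conserved association domain through a linker whose exons are variably spliced.

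The α exons carry the splicing choice for which the MEF2 genes are known, and they are shown to make visible which exons the MEF2C and MEF2D events are about. The sequences are those of GENCODE 29 transcripts matched by exon and intron lengths, on the coding strand, 5′ to 3′. Capitals mark bases that are identical between MEF2C and MEF2D in a global alignment.
MEF2C α1, 144 nt: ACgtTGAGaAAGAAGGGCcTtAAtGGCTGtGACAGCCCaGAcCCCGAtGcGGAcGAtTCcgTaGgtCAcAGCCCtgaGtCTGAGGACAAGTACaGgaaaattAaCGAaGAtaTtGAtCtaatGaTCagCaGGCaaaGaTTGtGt
MEF2D α1, 138 nt: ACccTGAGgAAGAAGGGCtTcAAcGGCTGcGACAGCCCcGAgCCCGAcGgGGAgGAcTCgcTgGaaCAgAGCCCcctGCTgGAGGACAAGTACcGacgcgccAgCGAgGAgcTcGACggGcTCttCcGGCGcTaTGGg
MEF2C α2, 138 nt: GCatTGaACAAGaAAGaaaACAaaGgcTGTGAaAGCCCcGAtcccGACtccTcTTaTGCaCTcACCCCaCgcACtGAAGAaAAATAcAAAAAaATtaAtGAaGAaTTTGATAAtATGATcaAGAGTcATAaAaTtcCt
MEF2D α2, 135 nt: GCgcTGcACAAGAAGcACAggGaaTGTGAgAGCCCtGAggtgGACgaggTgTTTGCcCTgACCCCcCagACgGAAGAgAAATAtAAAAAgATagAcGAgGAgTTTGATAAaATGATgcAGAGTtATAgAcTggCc
The α1 exons of the 2 genes were 63.7% identical over 146 aligned columns, and their α2 exons were 66.9% identical over 139. Within a gene, α1 and α2 were 64.1% identical in MEF2C and 55.2% in MEF2D. None of the 4 exons holds GCATG on either strand.

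The CAMK2D exons are shown because 1 of them is the single exon of the family that was called, and because the other belongs to a pair of similar exons. The first line gives the coding part of the called 96-nt exon, with its stop codon in capitals. The next lines give a 73-nt cassette exon and the 73-nt exon that precedes it, with capitals at the bases that differ between them.
CAMK2D 96-nt exon, coding part and stop: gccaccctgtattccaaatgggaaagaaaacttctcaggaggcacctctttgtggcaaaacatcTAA
CAMK2D 73-nt exon, cassette: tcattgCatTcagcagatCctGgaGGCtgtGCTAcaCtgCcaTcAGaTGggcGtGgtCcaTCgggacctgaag
CAMK2D 73-nt exon, preceding: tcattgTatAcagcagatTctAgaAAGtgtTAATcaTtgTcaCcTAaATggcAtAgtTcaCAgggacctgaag
The 73-nt exons lie 940 nt apart and are identical at 50 of 73 positions, 68.5%.

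The variable region of CAMK2G between the kinase and association domains is shown by its 63-nt, 69-nt and 114-nt exons; the last of these holds GCATG, in capitals.
CAMK2G 63-nt exon: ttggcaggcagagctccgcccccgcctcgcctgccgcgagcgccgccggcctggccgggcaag
CAMK2G 69-nt exon: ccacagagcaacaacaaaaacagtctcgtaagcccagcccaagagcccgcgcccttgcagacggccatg
CAMK2G 114-nt exon: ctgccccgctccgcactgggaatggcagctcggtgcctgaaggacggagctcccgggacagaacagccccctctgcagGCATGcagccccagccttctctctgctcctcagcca

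One event of the family differed between the sets of libraries. An event was called when its false discovery rate (FDR) was under 0.05 and the inclusion levels differed by at least 0.1. The inclusion level is the share of junction reads, corrected for length, that join the exon to its neighbours; it runs from 0 to 1. In the authors' deposited table, 1 of the 22 events passed, against 5.15% of all 31408 events, so the share called in these genes was near that of the table. The called event was the 96-nt exon of CAMK2D, which had the higher inclusion in the second set; 2.38% of all events were called in that direction. By exon, 1 of 20 passed, against 5.73% of all exons. At an unadjusted p under 0.05 the count in the authors' deposited table was also 1, against 12% of all events.

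CAMK2D encodes the delta kinase, the main form in heart. Its called exon (ENSG00000145349; hg19 chromosome 4, 114376882 to 114376977, minus strand) is exon 18 of 19 in the transcript CAMK2D-202. It lies between a 229-nt exon and a final exon of 3484 nt as listed in the table. The authors' deposited table gives this exon an inclusion difference of -0.104, with a p-value of 0.000608 (FDR 0.0138). The difference lies just past the minimum of 0.1, and the next lowest p-value of the family was 0.102, at FDR 0.691. Among the 1619 passing events of the authors' deposited table, 26 had a smaller absolute difference, and the median was 0.272. By p-value the event ranked 1383 of 31408. The call was lost at an FDR limit of 0.01, under Bonferroni correction and at a minimum difference of 0.2.

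The 96-nt exon changes where the CAMK2D reading frame ends. In GENCODE 29 its first 64 nt are coding, a stop codon follows, and 29 nt come after the stop. The exon is present in 2 annotated transcripts, both protein-coding and both with 0 coding nt in the exon that follows. The junction that skips it is in 1 annotated transcript, in which 1 coding nt lies in the last exon. The called difference therefore concerns an alternative C-terminal end of the kinase, which follows the association domain that assembles the holoenzyme.

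The 73-nt exon of CAMK2D codes for part of the kinase domain (hg19 chromosome 4, 114468800 to 114468872, minus strand). Its difference in the authors' deposited table was -0.021, at a p-value of 0.558. The event sets a form with both 73-nt exons against one with the preceding exon only. In GENCODE 29, 8 transcripts hold the preceding exon, 2 hold the cassette exon and 0 hold both. A transcript that uses the cassette exon alone shares its junction to the following 103-nt exon with the inclusion form, so the event does not measure a choice between the 2 exons. Neither listed CAMK2D exon lies in the linker, where the variable exons of this gene in muscle and brain are found.

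**Figure D1:**
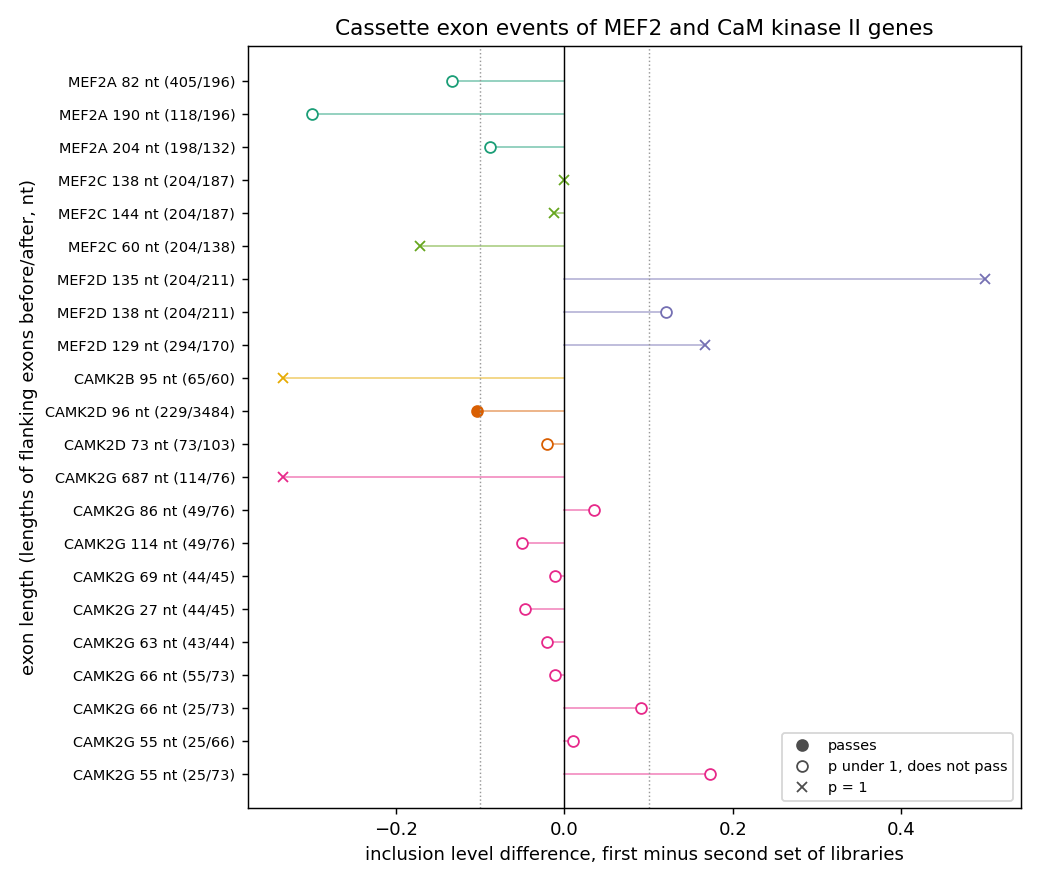
Inclusion level difference (horizontal axis, first minus second set of libraries, no unit) of the 22 events of the 6 genes, 1 row per event, labelled with the exon length and the lengths of the flanking exons in nt; filled circles pass, open circles have a p-value under 1 and do not pass, crosses have a p-value of 1, and dotted lines mark an absolute difference of 0.1. The 96-nt CAMK2D exon at -0.104 is the single filled circle, and the furthest points from 0, MEF2D at 0.5 and CAMK2B and CAMK2G at -0.334, are crosses.

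CAMK2G (ENSG00000148660), which encodes the broadly expressed gamma kinase, had 10 events, more than any of the other genes. Of these, 0 passed in rMATS and 0 had an unadjusted p under 0.05, against 5.15% and 12% of all events. These counts are too small to set CAMK2G apart from the table. In the authors' deposited table its differences ran from -0.334 to 0.173, with a median absolute difference of 0.041. All its exons were listed on chromosome 10, minus strand. They are described in 3 groups: a pair in the kinase domain, the 63-nt and 69-nt exons with a shorter form of the latter, and the exons nearer the 3′ end, of which the coding 114-nt exon precedes the association domain.

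The 63-nt and 69-nt exons of CAMK2G had small differences. For the 63-nt exon (hg19 chromosome 10, 75599297 to 75599359), the authors' deposited table gives -0.021 at a p-value of 0.413. The 69-nt exon (75585037 to 75585105) had -0.011 at a p-value of 0.658 per the authors' deposited table. A 27-nt exon, which is the first 27 nt of the 69-nt exon, had -0.047 at a p-value of 0.826 per the authors' deposited table. The transcript matched to it by exon and intron lengths has no coding sequence. The 63-nt, 69-nt and 27-nt lengths are all divisible by 3. Including or skipping the coding 63-nt and 69-nt exons therefore does not shift the reading frame. For the 27-nt exon the matched transcript gives no frame. The 27-nt and 69-nt events share the reads of their first junction and are not independent. Both the inclusion form and the skipping junction of each are annotated: the 63-nt exon is included in 4 transcripts and skipped in 8, and the 69-nt exon is included in 5 and skipped in 2.

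Nearer the 3′ end, the 114-nt exon of CAMK2G (hg19 chromosome 10, 75579290 to 75579403) had an inclusion difference of -0.05 at a p-value of 0.75 per the authors' deposited table. An 86-nt form of it, which ends at the same position but starts 28 nt later in the transcript, had 0.035 at a p-value of 0.201 per the authors' deposited table. These 2 exons share their last junction and their skipping junction, so their events are not independent. Of the 20 exons of the family these 2 hold GCATG on the coding strand, at the same place in the sequence. That is 10% of the exons, against 11% of the 24198 matched exons of 27 to 687 nt in the whole table. On the opposite strand, where the same letters read CATGC, 4 of the 20 exons had a match, against 11.1%. The 86-nt and 114-nt exons are among these, with their match at 1 shared place, and the difference in share was not tested. A 687-nt exon (75577967 to 75578653) had -0.334 at a p-value of 1 per the authors' deposited table. It was matched by exon and intron lengths to 1 transcript, without coding sequence. Its skipping form joins the 114-nt exon to a 76-nt exon, which is the last inclusion junction of the 114-nt and 86-nt events. The 687-nt event is therefore not independent of them.

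The kinase-domain exons of CAMK2G, 55 nt and 66 nt long, follow each other and were each listed in 2 events. With the 66-nt exon as its neighbour, the 55-nt exon (75612950 to 75613004) had an inclusion difference of 0.01 at a p-value of 0.574 per the authors' deposited table. Between a 25-nt and a 73-nt exon, the authors' deposited table lists 0.173 for the same exon at a p-value of 0.11. The 66-nt exon (75612012 to 75612077) had -0.011 at a p-value of 0.555 next to the 55-nt exon in the authors' deposited table. Between the same 25-nt and 73-nt exons it had 0.091 at a p-value of 0.258. Transcripts with both exons add reads of 1 junction to the inclusion forms at 0.173 and 0.091. These events therefore do not measure either exon with the other skipped. The form that joins each of these exons to its neighbour is in 8 GENCODE 29 transcripts, and the form that skips both exons is in 1. The difference listed for an exon was not the same for each pair of flanking exons, and no event of either exon passed. The events at 0.173 and 0.091 share the junction that skips both exons, and the events of each exon share an inclusion junction, so they are not independent.

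CAMK2B (ENSG00000058404) encodes the beta kinase, best known in brain. Its single event is a 95-nt exon of the kinase domain (hg19 chromosome 7, 44323730 to 44323824, minus strand), the second exon of 20 in CAMK2B-201. The authors' deposited table gives -0.334 at a p-value of 1. Its length is not divisible by 3, and 14 annotated transcripts include it while 0 have the skipping junction. The alpha kinase gene, CAMK2A, had 0 events.

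None of the 9 events of the MEF2 genes passed in rMATS, where 5.15% of all events did, and 0 had an unadjusted p under 0.05, where 12% of all events did. With so few events, these counts are near the background. In the authors' deposited table their median absolute difference was 0.134, and the p-value was 1 for 5 of the 9. The direction differed by gene: all 3 events of MEF2A were higher in the second set, all 3 of MEF2D were higher in the first set, and MEF2C had 2 higher in the second set and 1 at 0. Whether the genes differ in direction was not tested, and with no event past the threshold these signs describe the table alone.

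MEF2D (ENSG00000116604) was the gene of the family with the largest listed difference. Its α2 exon, of 135 nt (hg19 chromosome 1, 156450435 to 156450569, minus strand), had an inclusion difference of 0.5 per the authors' deposited table, with a p-value of 1. In the whole of the authors' deposited table, 672 events had an absolute difference of exactly 0.5, and 539 of them had a p-value of 1. The α1 exon of MEF2D, of 138 nt (156450626 to 156450763), had 0.121 at a p-value of 0.102 (FDR 0.691) per the authors' deposited table. Both α exons are listed between the same 204-nt and 211-nt exons, and the direct junction of those flanking exons is in 0 annotated transcripts. These events set each α exon against skipping of the whole α region, and neither measures α1 against α2. Both use the reads of that direct junction and are not independent. A 129-nt exon before the coding sequence of MEF2D (156469224 to 156469352) had 0.167 at a p-value of 1 per the authors' deposited table.

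MEF2C (ENSG00000081189) had a p-value of 1 in all 3 of its events. Its α2 exon, of 138 nt (hg19 chromosome 5, 88056805 to 88056942, minus strand), had an inclusion difference of 0 per the authors' deposited table. The α1 exon, of 144 nt (88057002 to 88057145), had -0.012 in the authors' deposited table. Skipping of the α region is annotated for MEF2C, in 2 transcripts, while 13 transcripts hold α1 and 7 hold α2 in these events. A 60-nt exon (88057086 to 88057145), which is the first 60 nt of α1 and is joined to α2 in the annotated transcript MEF2C-201, had -0.172 in the authors' deposited table. It shares its first junction with α1, so those events are not independent. Its skipping form joins the 204-nt exon to α2, and this is the first inclusion junction of the α2 event. The 60-nt event is therefore not independent of the α2 event either. The α1 and α2 events share their skipping junction, so they are not independent of each other.

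MEF2A (ENSG00000068305) was listed for exons at the start of its transcript and for the later part of its DNA-binding domain, not for an α exon as a cassette. An 82-nt exon before the coding sequence (hg19 chromosome 15, 100138635 to 100138716, plus strand) had an inclusion difference of -0.134 at a p-value of 0.164 per the authors' deposited table. A 190-nt exon, also before the coding sequence (100161096 to 100161285), had -0.3 at a p-value of 0.389 per the authors' deposited table. The coding 204-nt exon (100185766 to 100185969) had -0.088 at a p-value of 0.147 per the authors' deposited table. This exon completes the MADS and MEF2 domain, and in MEF2C and MEF2D an exon of the same length is the one that precedes the α exons. The MEF2A exon was 79.9% identical to that of MEF2C and 77% identical to that of MEF2D, and those of MEF2C and MEF2D were 86.3% identical.

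**Figure D2:**
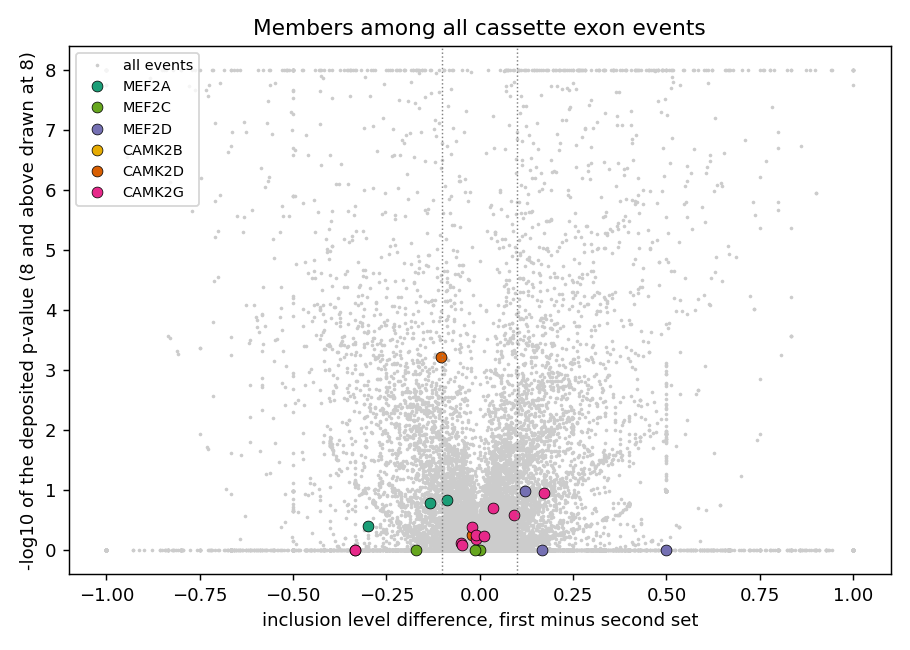
Inclusion level difference (horizontal axis, first minus second set) against -log10 of the deposited p-value (vertical axis, values of 8 and above drawn at 8) for all 31408 events in grey and the 22 events of the 6 genes in colour; dotted lines mark an absolute difference of 0.1. The CAMK2D exon with a p-value of 0.000608 stands above the other 21 coloured points, whose lowest p-value is 0.102.

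The largest listed differences in the family had high p-values. The absolute difference reached 0.1 in 10 of the 22 events, or 45.5%, against 31.5% of all events, and 5 of these 10 had a p-value of 1. Of the family, 4 events of the authors' deposited table reached 0.3; 3 had a p-value of 1, and the remaining one, in MEF2A, had 0.389. Over the whole of the authors' deposited table, 3442 events reached 0.3, 62.6% of them with a p-value of 1. The median absolute difference was 0.0895 for the 22 events and 0.048 for all events. Restricted to events with a p-value under 1, it was 0.05 for 15 events of the family and 0.065 for all 15267 such events, so which of the medians was larger depended on events with listed p-values of 1. By sign, 14 of the 22 events had higher inclusion in the second set, 7 in the first set and 1 was at 0, while 46.1% of all events had it in the second set.

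The exons of the family had these features, none of which was used to choose them. Lengths were divisible by 3 for 14 of the 20 exons (70%), against 40.7% of the 27483 exons of the table. The median exon length was 95.5 nt, against 117 nt over all exons. In GENCODE 29, 13 of the 20 exons are fully coding, or 65%, against 66.1% of the 24785 matched exons of the table. Of the others, 3 lie before the coding sequence, 3 were matched only to transcripts without coding sequence and 1 is the partly coding exon of CAMK2D. The junction that skips the exon is annotated for 17 of the 22 events, 77.3%, against 49.4% of all events. These shares are descriptions, since exons of 1 gene overlap and share flanking exons.

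**Figure D3:**
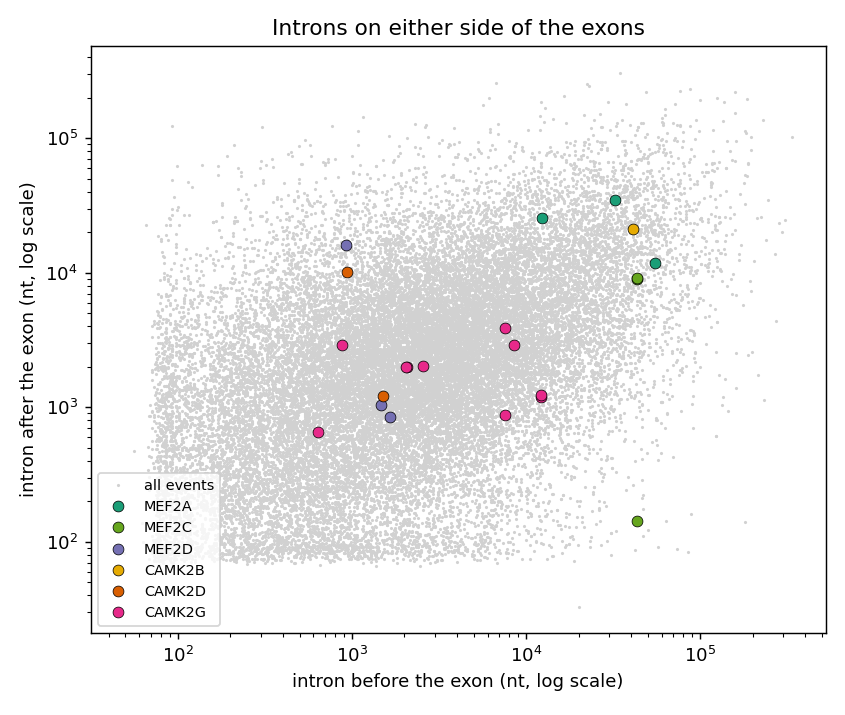
Length of the intron after each exon (vertical axis, nt, log scale) against the intron before it (horizontal axis, nt, log scale), in transcript order, for all events in grey and the 22 events of the 6 genes in colour. MEF2A and CAMK2B lie at the upper right with both introns over 10 kb, MEF2C has a long intron before each exon, from 43269 to 43472 nt, and CAMK2G and the called CAMK2D exon (1513 nt before, 1210 nt after) lie in the bulk of the table.

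The lengths of the introns around the exons differed between some genes of the family and overlapped between others. All 3 MEF2A events and the CAMK2B event had introns of over 10 kb on both sides, making 4 of 22, or 18.2%, against 7.23% of all events. The longest were 54786 nt before the 190-nt exon of MEF2A and 34466 nt after its 82-nt exon. In MEF2D the introns around the α exons were short, 1465 nt before α1 and 846 nt after α2. The plot of flanking introns shows the MEF2C exons together, except the 60-nt exon, whose following intron is 143 nt and separates it from α2.

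Other genes of calcium/calmodulin and MEF2 signalling were described from a list of 45 genes, of which 38 had events. Of their 164 events in the authors' deposited table, 9 passed, 5.49%, close to the share in the whole table; the first set was higher in 6 and the second set in 3. Their median absolute difference was 0.038, against 0.048 for all events. The passing events lie in 7 genes.

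Among the regulators of MEF2, CABIN1, which binds and restrains both calcineurin and MEF2, had a 135-nt exon at 0.156 (FDR 0.0361) per the authors' deposited table. PRKD2, a kinase of the family that sends class IIa histone deacetylases out of the nucleus, had a 139-nt exon at 0.353 (FDR 0.00195) per the authors' deposited table. The class IIa deacetylases that repress MEF2 (HDAC4, HDAC5, HDAC7 and HDAC9) had 16 events, and 0 passed in rMATS, with 1 at an unadjusted p under 0.05, against 5.15% and 12% of all events; these counts are too small to set the deacetylases apart from the table. MEF2B had 2 events and 0 passed, with 0 at an unadjusted p under 0.05, too few events to set against the same shares.

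On the calcium side, CAMK1, a kinase activated by calmodulin that acts as a single subunit, had a 132-nt coding exon at -0.177 (FDR 0.00131) per the authors' deposited table. ITPR2, a calcium release channel of the endoplasmic reticulum, had a 116-nt exon at -0.3 (FDR 0.0295) per the authors' deposited table. CREB1, a transcription factor phosphorylated by CaM kinases, had a 42-nt coding exon at 0.262 (FDR 7.33e-09) per the authors' deposited table. NFAT5, a factor related to those that calcineurin activates, had a 60-nt exon at -0.724 (FDR 2.06e-06) per the authors' deposited table. The transcripts matched to this exon by exon and intron lengths are not protein-coding. The calcineurin subunit genes had 12 events and the calmodulin genes 4. In rMATS 0 of these passed, with 1 and 0 at an unadjusted p under 0.05, against 5.15% and 12% of all events. These counts are too small to set either group apart from the table.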

How the data were processed

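The labels describe 4 stranded libraries of ribosome-depleted RNA, grouped by genotype. The submitters' processing notes name STAR 2.7.3a and hg19; the splicing tool's version, annotation and read filters are not given in the sources used here. Per the file headers, the authors deposited 1 rMATS table of skipped exons from junction counts, with an inclusion level difference, a p-value and an FDR per event. The first set minus the second is the rMATS convention, since the header does not spell out the sign. Benjamini-Hochberg values recomputed from the p-values over 31408 events matched the deposited FDR (largest gap 1.11e-16). The deposited effective lengths are 94 nt for skipping and up to 188 nt for inclusion, growing with the exon. The 6 columns of values per library match no sample or group in the labels and were not used. No count model was therefore run, and p-values are those of the authors.

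Positions are those of the table, given from 1, in hg19 per the submitters' processing notes, which was not checked against a genome. Exons were matched to GENCODE 29 by gene identifier, exon length and both intron lengths, without coordinates, and 19 of 22 events matched fully. Of their exons, the 73-nt exon of CAMK2D matched by 1 intron. The remaining 2 events concern exons matched through another event. Sequences came from the matched transcripts. No hg19 genome sequence was used here, so flanking introns were not searched for motifs. Alignments scored 1 for a match, -1 for a mismatch, -2 for opening and -1 for extending a gap.

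The members and lists were chosen with earlier results of these data known. Every event of the members is named, and the passing events of the wider list except those of 1 gene, which is not reported here; the rule for sequences was the fully coding exons of the alternative regions. They are printed for the α exons and the variable region of CAMK2G and not for the other coding exons of MEF2A, CAMK2B and the CAMK2G kinase domain. The partly coding CAMK2D exon and the flanking 73-nt exon were added after their values were seen. Alternatives were other FDR limits, Bonferroni correction, other minimum differences, a correction per exon and events with a p-value under 1. On simulated p-values and differences, 200 of 200 planted events among 31408 were called, with 3 unchanged events called. The planted p-values were drawn far below the limit, and no reads were simulated. This checked the code for the calls and does not measure sensitivity for an event like the CAMK2D exon. Tools were Biopython 1.88, matplotlib 3.10.9, numpy 2.4.6, pandas 2.3.3 and scipy 1.17.1 under Python 3.11.15.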

Additional observations from a re-analysis of the deposited data

How the results depend on the processing

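The single call, the 96-nt exon of CAMK2D, depended on the limits. The number of passing events and of passing exons of the 6 genes was 0 at an FDR under 0.01, 0 under Bonferroni correction over the table and 0 at a minimum difference of 0.2, since each limit is stricter than the exon's values. The number stayed 1 at an FDR under 0.1 and without a minimum difference, which are looser limits that cannot lose a call. For exons it also stayed 1 with the lowest p-value of each exon corrected for that exon's number of events. The called exon has 1 event, so this correction left its p-value unchanged. Under Bonferroni correction 4 events of the wider list passed and 1.5% of all events. Its other alternatives gave 6 to 10 events of the list and 3.49% to 6.19% of all events. The median absolute difference of the 22 events was 0.0895, and 0.05 with events at a p-value of 1 left out.

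No paired analysis was run, since the labels give no pairing between WT and RBFOX2 KO libraries. The columns of values per library also match no sample and show no clone number. Leaving out each library was not run, since these columns were not used, so no value here shows how far 1 clone decides the CAMK2D call.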
